A study of Rattus norvegicus with 11 samples.

Results

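Fat cell genes were followed through whole rat lung as a group of 10: the brown fat uncoupling protein Ucp1, the hormones Lep and Adipoq, the lipid droplet proteins Cidea, Cidec and Plin1, the adipokine Cfd, and the metabolic enzymes Lpl, Gpd1 and Pck1. They were chosen by name, as every probe set whose annotated symbol is exactly one of these, which gave 10 of the 14217 genes named on the array and 12 of the 31042 probe sets tested, with a pair each for Plin1 and Gpd1. The lungs came from Dahl salt-sensitive rats weighing 250 to 350 g and were perfused through the pulmonary artery when the animals were killed. There were 3 groups, all at 3.5 weeks of the experiment, which is not an age: hypoxia at an inspired oxygen of about 9.5% with SU5416, an inhibitor of the VEGF receptors (3 arrays), the same hypoxia with vehicle (4 arrays), and room air with vehicle (normoxia, 4 arrays). No group here had SU5416 in room air, so the inhibitor without hypoxia was not measured, and neither its dose nor the age or sex of the animals is given in the sources used here. The labels do not say that each array is a separate animal, so p-values measure the spread between arrays, which may be technical, and the number of arrays limits the precision. In whole lung, fewer cells of a type and less RNA per cell cannot be told apart, and fat that stays attached to the lung is part of the sample.

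White adipocytes store triglyceride in a single large droplet coated by perilipin and release leptin, adiponectin and adipsin into the blood. Brown adipocytes hold many small droplets and burn fatty acids for heat, using a proton leak through uncoupling protein 1 in the mitochondrial inner membrane. In rodents brown and white fat lie close to the lung around the large vessels and the mediastinum. The lung has lipid-handling cells of its own: lipofibroblasts carry droplets, alveolar macrophages take up surfactant lipid, and lipoprotein lipase acts on the luminal face of capillaries.

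The stretches of 250 bases before the annotated start are shown for 4 genes, Ucp1 and Lep because they had the lowest unadjusted p of the genes in a comparison, and Cidea and Cfd because their signals followed each other most closely from array to array. The sequences are RefSeq's for GRCr8, which matched 8 of the 10 genes. The windows lie at chr19:41721422-41721671 on the minus strand for Ucp1, chr4:58626288-58626537 on the plus strand for Lep, chr18:63164567-63164816 on the plus strand for Cidea and chr7:10465497-10465746 on the minus strand for Cfd. Bases are counted from the start that the promoter table gives, which for Lep lies 9 bases inside the gene's annotated span. Capitals mark matches, on either strand, to 5 short motifs that do not overlap here.
Ucp1: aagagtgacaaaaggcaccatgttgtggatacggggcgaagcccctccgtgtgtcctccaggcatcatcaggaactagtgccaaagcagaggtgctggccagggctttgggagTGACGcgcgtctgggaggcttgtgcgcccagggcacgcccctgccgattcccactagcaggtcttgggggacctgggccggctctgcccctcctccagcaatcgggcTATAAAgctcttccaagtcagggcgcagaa
Lep: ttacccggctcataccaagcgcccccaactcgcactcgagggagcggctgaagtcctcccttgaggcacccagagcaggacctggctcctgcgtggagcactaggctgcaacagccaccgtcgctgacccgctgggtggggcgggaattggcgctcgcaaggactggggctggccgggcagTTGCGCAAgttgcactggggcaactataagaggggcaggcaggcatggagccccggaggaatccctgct
Cidea: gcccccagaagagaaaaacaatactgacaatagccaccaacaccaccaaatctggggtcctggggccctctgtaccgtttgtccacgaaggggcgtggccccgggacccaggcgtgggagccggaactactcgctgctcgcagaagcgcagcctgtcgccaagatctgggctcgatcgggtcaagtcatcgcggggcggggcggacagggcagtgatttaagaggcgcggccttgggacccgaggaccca
Cfd: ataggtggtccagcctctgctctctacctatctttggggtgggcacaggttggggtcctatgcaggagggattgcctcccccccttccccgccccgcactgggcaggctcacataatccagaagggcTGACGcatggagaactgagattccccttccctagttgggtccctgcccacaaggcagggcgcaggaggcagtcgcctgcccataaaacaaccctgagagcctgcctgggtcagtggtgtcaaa
The Ucp1 window holds a TATA box (TATAAA) from 30 to 25 bases before the start, a motif found in 12.9% of 33469 windows of this length. It also holds a half-site of the cyclic AMP response element (CGTCA, written as its complement TGACG), as does Cfd. That half-site is in 18.2% of all windows. The Lep window holds the palindrome bound by C/EBP factors (TTGCGCAA) from 69 to 62 bases before the start, which 0.14% of all windows hold. The ACGTG form of the core of the hypoxia response element (in 16.6% of windows) and the nuclear receptor half-site (AGGTCA, in 14.1%) were in none of the 4 windows. The other form of that core, GCGTG, was not among the motifs searched. Its letters can be read, on either strand, in the Ucp1, Lep and Cidea windows, and its share over all windows was not computed. The Cidea window held none of the 5. A match is a run of letters and not a measured site.

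Signals are log2 intensities, and a level of 5.72, the 95th percentile of 27 probe sets for bacterial transcripts, served as the background. Of the 10 genes, each by its brighter probe set, Adipoq, Cidea, Plin1, Pck1, Cfd, Lpl and Gpd1 were above this level on all 11 arrays. Ucp1 was above it in 2 of the 3 groups, Lep mainly in normoxia, and Cidec on 2 arrays with SU5416 only. None of the 12 probe sets passed the test across all probe sets (limma, Benjamini-Hochberg adjusted p below 0.05) in any of the 3 comparisons, in which 0.0258% (hypoxia with SU5416 against hypoxia), 0.00644% (hypoxia against normoxia) and 0.0612% (hypoxia with SU5416 against normoxia) of all probe sets were called. Normoxia arrays 1 and 2 stood apart in the gap between the 3′ and 5′ probe sets of beta-actin, a measure of RNA integrity, at 2.24 and 1.33, against 0.51 to 0.87 on the other 9 arrays. The same gap of GAPDH set them less clearly apart, at 0.84 and 0.64 against 0.06 to 0.52, with 0.52 on hypoxia array 3. The largest difference among the 12 was that of Ucp1 between hypoxia with SU5416 and hypoxia.

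**Figure D1:**
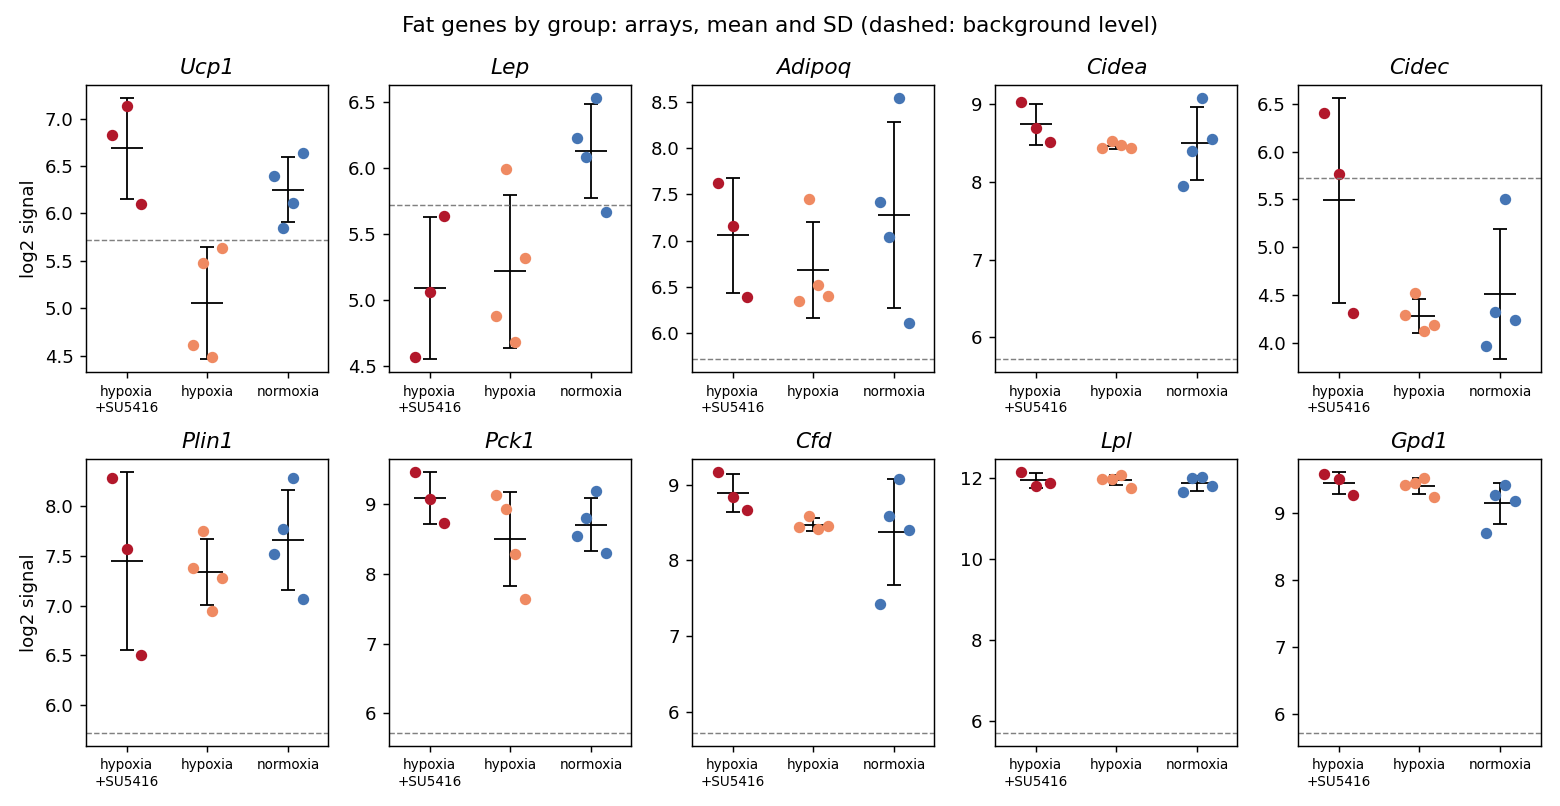
Log2 signal of the brighter probe set of each of the 10 genes, with a point per array, the group mean (horizontal bar) and the SD (whiskers) for hypoxia with SU5416 (n = 3), hypoxia (n = 4) and normoxia (n = 4). The dashed line is the background level of 5.72. The 4 hypoxia arrays lie below it for Ucp1, while Lpl stays close to 12 in every group; the axes differ between panels.

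Ucp1, the heat-producing uncoupling protein of brown fat, was lowest in hypoxia alone. Its signal was 6.83, 7.13 and 6.10 in hypoxia with SU5416. It was 4.61, 5.48, 4.49 and 5.64 in hypoxia. In normoxia it was 6.39, 5.85, 6.11 and 6.64. All 4 hypoxia arrays were below the background level, and all other arrays were above it, so hypoxia overlapped neither of the other groups, whereas those overlapped each other. The mean was 6.69 ± 0.53 (SD, n = 3) with SU5416 and 5.05 ± 0.59 (n = 4) in hypoxia, a difference of 1.63 (SE 0.35, limma adjusted p = 0.318). With hypoxia set at the background the means differ 1.96-fold. Such a fold leaves out the spread between arrays and is no lower limit. The mean in normoxia was 6.25 ± 0.34 (n = 4). Hypoxia against normoxia differed by -1.19 (SE 0.32, adjusted p = 0.293), 1.44-fold lower with hypoxia set at the background, and hypoxia with SU5416 against normoxia by 0.44 (SE 0.35, adjusted p = 0.642). Without normoxia arrays 1 and 2 these were -1.32 and 0.31. Among the unadjusted p-values of its comparison, Ucp1 had rank 82 for hypoxia with SU5416 against hypoxia and rank 426 for hypoxia against normoxia.

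Lep encodes leptin, the satiety hormone that white fat releases. Its signal was 4.57, 5.06 and 5.64 in hypoxia with SU5416. It was 4.88, 5.99, 4.68 and 5.32 in hypoxia, and 6.23, 6.08, 6.53 and 5.67 in normoxia. It was above background on 0 of 3 arrays with SU5416, 1 of 4 in hypoxia and 3 of 4 in normoxia, and the arrays with SU5416 did not overlap those in normoxia, though the gap of 5.64 to 5.67 was narrow. The mean of 5.09 ± 0.54 (n = 3) with SU5416, against 6.12 ± 0.36 (n = 4) in normoxia, differed by -1.04 (SE 0.35, adjusted p = 0.285). With the SU5416 arrays set at the background it was 1.32-fold lower, again without the spread between arrays. In hypoxia the mean was 5.22 ± 0.58 (n = 4), a difference of -0.91 from normoxia (SE 0.32, adjusted p = 0.377) with overlapping arrays. Without normoxia arrays 1 and 2 the differences from normoxia were -1.01 with SU5416 and -0.88 in hypoxia. Hypoxia with SU5416 and hypoxia, both mostly at background, overlapped. Against normoxia the mean with SU5416 was thus above for Ucp1 and below for Lep; whether their patterns differ beyond the spread was not tested.

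Adipoq encodes adiponectin, the most abundant hormone of adipocytes. Its signal was 7.62, 7.16 and 6.39 in hypoxia with SU5416. It was 6.35, 7.45, 6.52 and 6.40 in hypoxia, and 7.42, 7.04, 8.54 and 6.11 in normoxia. The normoxia arrays alone spanned from the lowest to the highest value of the series, and all groups overlapped. Means were 7.06 ± 0.62 with SU5416 (n = 3), 6.68 ± 0.52 in hypoxia (n = 4) and 7.28 ± 1.01 in normoxia (n = 4), and hypoxia differed from normoxia by -0.60 (SE 0.49, adjusted p = 0.685). This difference was -0.18 without normoxia array 3 and -0.99 without normoxia array 4. Hypoxia with SU5416 differed by 0.38 from hypoxia (SE 0.53, adjusted p = 0.912), and by 0.71 without its own array 3. Against normoxia it differed by -0.22 (SE 0.53, adjusted p = 0.9), a difference that was 0.20 without normoxia array 3.

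Of the proteins that coat or enlarge lipid droplets, Plin1, perilipin, guards stored triglyceride against lipases. By its brighter probe set it was 8.28, 7.57 and 6.50 in hypoxia with SU5416. It was 7.38, 7.75, 6.94 and 7.28 in hypoxia, and 7.52, 7.77, 8.28 and 7.07 in normoxia. The arrays with SU5416 held the lowest value of the series and one of its 2 highest. Its 3 differences lay between -0.32 and 0.11 (SE 0.37 to 0.40, adjusted p from 0.791 to 0.971). The dimmer Plin1 probe set gave -0.29 in hypoxia (SE 0.17, adjusted p = 0.55) and -0.39 with SU5416 (SE 0.18, adjusted p = 0.424), each against normoxia, and -0.09 with SU5416 against hypoxia. For the brighter probe set the difference of hypoxia with SU5416 from normoxia, -0.21, was 0.26 without SU5416 array 3 and 0.00 without normoxia array 3, so it has no settled direction.

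Cidea and Cidec are proteins of droplet contacts that move lipid between droplets, Cidea being a marker of brown fat in rodents. Cidea was 9.03, 8.69 and 8.51 in hypoxia with SU5416. It was 8.44, 8.52, 8.47 and 8.43 in hypoxia, and 7.95, 8.40, 9.08 and 8.55 in normoxia. The 4 hypoxia arrays were close together (SD 0.04), while normoxia held both the lowest and the highest value (SD 0.47). Differences were 0.28 for hypoxia with SU5416 against hypoxia, 0.25 for hypoxia with SU5416 against normoxia (SE 0.23 each, adjusted p = 0.848 and 0.703) and -0.04 for hypoxia against normoxia (SE 0.21, adjusted p = 0.97). Without SU5416 array 1 the first of these was 0.14, and without normoxia array 1 the second was 0.06. Cidec was 6.40, 5.76 and 4.31 with SU5416, and between 4.12 and 4.52 in hypoxia and between 3.97 and 5.50 in normoxia. It was thus measurable above background on 2 arrays with SU5416 and on none of the others. The fitted differences of hypoxia with SU5416, 1.21 from hypoxia and 0.99 from normoxia (SE 0.48 each, adjusted p = 0.616 and 0.439), give no fold because the mean of 5.49 with SU5416 was itself under the background level. Without SU5416 array 1 they were 0.76 and 0.53, and without SU5416 array 3 they were 1.80 and 1.57.

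Cfd encodes adipsin, the complement protease factor D, which in rodents comes mainly from fat. It was 9.17, 8.83 and 8.67 in hypoxia with SU5416. It was 8.44, 8.59, 8.41 and 8.45 in hypoxia, and 7.42, 8.59, 9.08 and 8.40 in normoxia. All 3 arrays with SU5416 were above all 4 of hypoxia, a difference of 0.42 (SE 0.32, adjusted p = 0.838), with a mean of 8.89 ± 0.25 (n = 3) against 8.47 ± 0.08 (n = 4). The normoxia mean of 8.37 ± 0.70 (n = 4) contained the single low value of array 1. That array had the widest beta-actin gap. Without normoxia arrays 1 and 2, hypoxia with SU5416 differed from normoxia by 0.15 in place of 0.52 (SE 0.32, adjusted p = 0.536), and hypoxia by -0.27 in place of 0.10 (SE 0.29, adjusted p = 0.932). The same change turned the Cidea difference of hypoxia with SU5416 to -0.07 and took that of hypoxia to -0.36. The part of RNA integrity in these values was not tested.

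Of the brighter probe sets, those of the enzymes Lpl and Gpd1 showed the least spread within groups. Lpl, lipoprotein lipase, which frees fatty acids from circulating triglyceride, was between 11.80 and 12.15 in hypoxia with SU5416, between 11.76 and 12.07 in hypoxia and between 11.64 and 12.03 in normoxia. It differed from normoxia by 0.08 with SU5416 and by 0.08 in hypoxia, and by 0.00 between hypoxia with SU5416 and hypoxia (SE 0.13 to 0.14), and the groups overlapped fully. Gpd1, the glycerol-3-phosphate dehydrogenase that supplies the backbone of triglyceride, was 9.57, 9.51 and 9.26 in hypoxia with SU5416. It was 9.41, 9.44, 9.52 and 9.24 in hypoxia, and 8.70, 9.27, 9.41 and 9.17 in normoxia. It differed from normoxia by 0.31 with SU5416 (SE 0.17, adjusted p = 0.487) and by 0.27 in hypoxia (SE 0.16, adjusted p = 0.557), with 0.16 and 0.12 without normoxia arrays 1 and 2. The dimmer Gpd1 probe set was under the background level on all 11 arrays and gives no fold. Pck1, phosphoenolpyruvate carboxykinase, which makes glycerol in fat and glucose in liver, was 9.47, 9.08 and 8.73 with SU5416. It was 9.13, 8.94, 8.29 and 7.64 in hypoxia, and 8.54, 8.80, 9.19 and 8.30 in normoxia. Its difference of 0.60 between hypoxia with SU5416 and hypoxia (SE 0.36, adjusted p = 0.785) was 0.31 without hypoxia array 4, the lowest of the series.

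**Figure D2:**
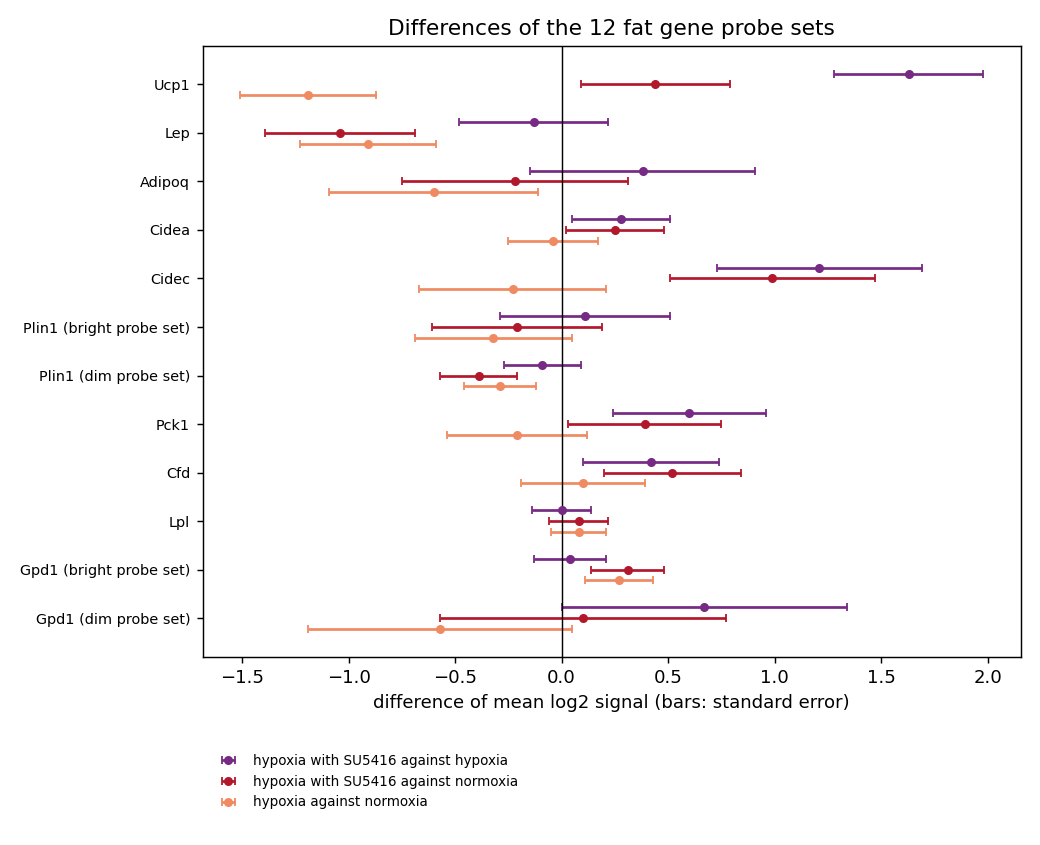
Difference of mean log2 signal for each of the 12 probe sets (rows) in 3 comparisons (colours), with the standard error from the limma fit as bars and 0 as the vertical line. Ucp1 lies farthest from 0, at 1.63 for hypoxia with SU5416 against hypoxia and at -1.19 for hypoxia against normoxia, and Lpl stays within 0.08 of 0.

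Counted together, 0 of the 12 probe sets were called in hypoxia with SU5416 against hypoxia, where 0.0258% of all probe sets were called. Of the 12, 2 (Ucp1 and Cidec) were higher with SU5416 at an unadjusted p under 0.05, beside 4.02% of all, and 2 (Ucp1 and Cfd) were higher without overlap, beside 6.27% of all. The median difference was 0.33, beside 0.014 for all probe sets, and 9 of the 12 were above 0, beside 52.4%. In hypoxia against normoxia 0 were called (0.00644% of all), 2 (Ucp1 and Lep) were lower at an unadjusted p under 0.05, beside 7.64% of all, and Ucp1 alone was lower without overlap, beside 4.08%. The median was -0.26, beside -0.045 for all, and 3 of 12 were above 0, beside 42.4%. In hypoxia with SU5416 against normoxia 0 were called (0.0612%), Lep alone was lower at an unadjusted p under 0.05, beside 7.57% of all, and without overlap, beside 6.97%. The median there was 0.17, beside -0.038, and 8 of 12 were above 0, beside 44.5%. The comparisons share arrays, so their values are not independent of each other.

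Within groups the arrays spread widely for several of the genes. The residual SD of Adipoq, the spread left within groups, was 0.76 and larger than that of 88.8% of all probe sets. That of Cidec was 0.69 (86.1%), of the brighter Plin1 probe set 0.58 (81.4%), of Pck1 0.51 (77.5%) and of Lep and Ucp1 0.50 and 0.49 (76.6% each). Lpl had 0.16, larger than 21.8%. The spread of dim probe sets is wider in general. Among probe sets with a mean above background the shares were 95.8% for Adipoq, 91.2% for the brighter Plin1 probe set and 88.4% for Pck1. They were 87.6% for Ucp1 and 26.5% for Lpl. These shares are a description.

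SU5416 array 1 was the highest of the 11 arrays for 5 of the 10 genes, Cidec, Pck1, Cfd, Lpl and Gpd1, and among the 3 highest for 9 of them, all but Lep, for which it was the lowest. Normoxia array 3 was the highest for 4, Lep, Adipoq, Cidea and Plin1, sharing the value of 8.28 with SU5416 array 1 for Plin1, and among the 3 highest for 8. Normoxia array 1 was the lowest for 5, Cidea, Cidec, Cfd, Lpl and Gpd1. SU5416 array 3 and hypoxia array 4 were among the 3 highest for 0 of the 10. So 2 arrays of different groups carried most of the high values, and SU5416 array 1, high for most genes, shares its group with SU5416 array 3, which was high for none.

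**Figure D3:**
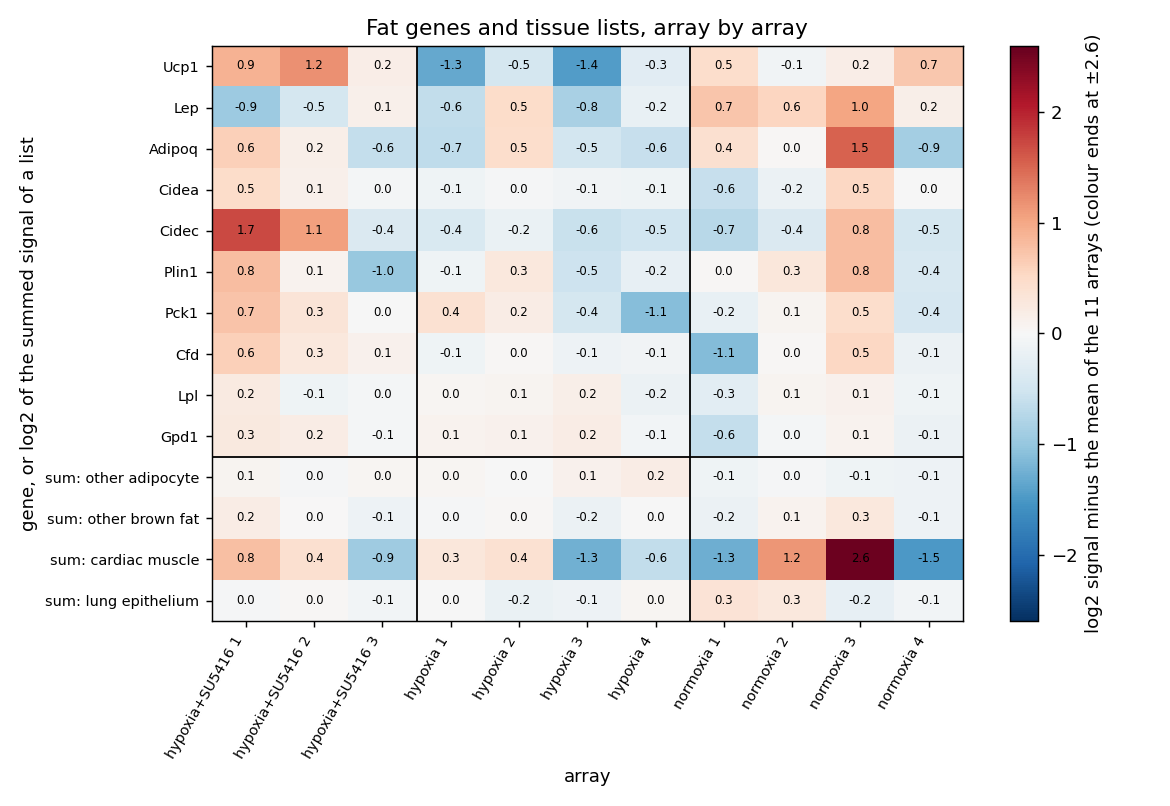
Log2 signal minus its mean over the 11 arrays for the 10 genes, and the log2 of the summed signal of 4 gene lists treated the same way, with arrays as columns in the order hypoxia with SU5416, hypoxia and normoxia. SU5416 array 1 and normoxia array 3 are high for most fat genes, and the cardiac muscle sum peaks on normoxia array 3. A sum mostly follows the brightest genes of its list.

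Over the 11 arrays Adipoq was most closely followed by Plin1 (Pearson r = 0.84, permutation p = 0.0012, adjusted p = 0.0108 over 9 pairs; Spearman rho = 0.82, permutation p = 0.00356, adjusted p = 0.032; two-sided, 100000 resamples). The relation was 0.79 without normoxia arrays 3 and 4, the farthest from the median of Adipoq, and 0.83 for deviations from the group means. It was the only one of the 9 pairs with an adjusted p below 0.05. Cidec gave r = 0.60 and rho = 0.54 (permutation p = 0.0495 and 0.0933, adjusted p = 0.175 and 0.21) and r = 0.54 without those arrays. Pck1 gave r = 0.59 and rho = 0.55 (permutation p = 0.0584 and 0.0805, adjusted p = 0.175 and 0.21), and the other 6 lay between r = 0.10 for Gpd1 and 0.47 for Cidea. Leaving out normoxia array 1, chosen after its low values were seen, took Cidea to r = 0.80, Cfd to 0.83, Lpl to 0.53 and Gpd1 to 0.50, whereas without normoxia arrays 3 and 4 they were 0.19 for Cidea, 0.03 for Cfd, 0.09 for Lpl and -0.09 for Gpd1. These relations thus rest on a few arrays.

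All 45 pairs were computed after the values were seen. Of these 37 had r above 0, with a median of 0.45 and a range from -0.55 (Lep and Gpd1) to 0.93 (Cidea and Cfd), and 4 had a permutation adjusted p below 0.05 for r: Cidea with Cfd, Adipoq with Plin1, Cidea with Cidec, and Lpl with Gpd1. The first pair had r = 0.93 (permutation p = 8e-05, adjusted p = 0.0036) and rho = 0.65 (permutation p = 0.0328, adjusted p = 0.164), with r = 0.90 without normoxia arrays 1 and 3 and 0.94 for deviations from the group means. Cidea with Cidec had r = 0.83 and rho = 0.74 (permutation p = 0.00089 and 0.0131, adjusted p = 0.0158 and 0.0983) and 0.94 without the same arrays. Lpl with Gpd1 had r = 0.78 and rho = 0.77 (permutation p = 0.0027 and 0.00806, adjusted p = 0.0304 and 0.0907) and 0.59 without normoxia array 1 and hypoxia array 4. By rho, 3 pairs had an adjusted p below 0.05: Cidec with Cfd (rho = 0.91, permutation p = 0.00041, adjusted p = 0.0185), Cidec with Pck1 (rho = 0.83, permutation p = 0.00268, adjusted p = 0.0489) and Adipoq with Plin1 (permutation adjusted p = 0.0489). Most Cidec values lie below background. Several pairs with an adjusted p above 0.05 had a lower r without normoxia array 1, the array with the widest beta-actin gap and the lowest for Cidea, Cidec, Cfd, Lpl and Gpd1. Without it Cfd with Gpd1 had r = 0.51 in place of 0.85, Cidea with Gpd1 0.47 in place of 0.74, Cfd with Lpl 0.46 in place of 0.70, and Cidea with Lpl 0.46 in place of 0.67. Of the pairs below 0.05 for r, Cidea with Cfd had 0.92, Cidea with Cidec 0.87, Adipoq with Plin1 0.85 and Lpl with Gpd1 0.65 without it. Lep stood apart, with r of 0 or below with 6 of the other 9, and Ucp1 went with Cidec (r = 0.57) more than with any other; both are descriptions. All pairs share the arrays and their scaling.

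**Figure D4:**
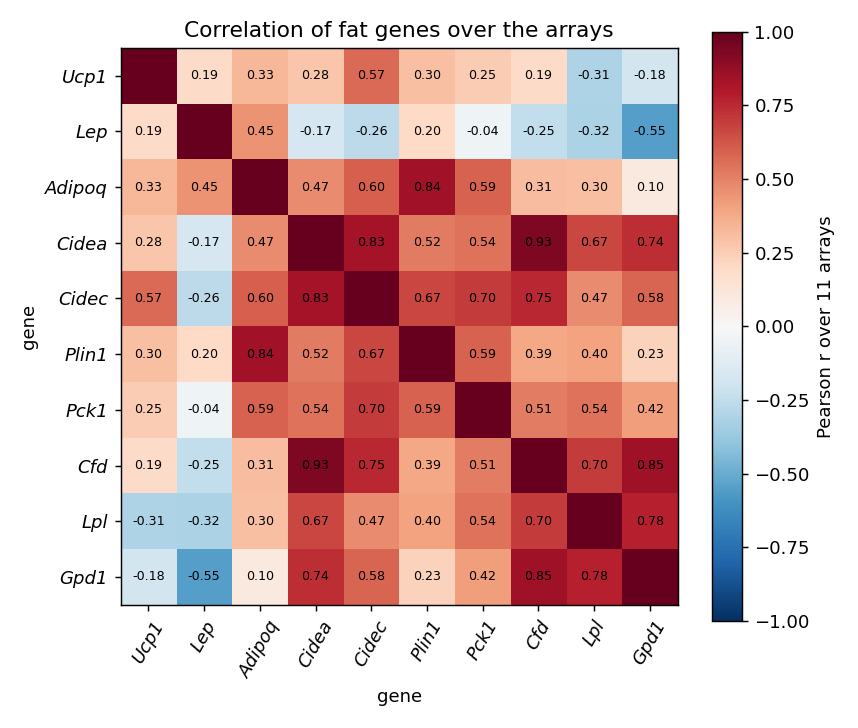
Pearson r over the 11 arrays for each pair of the 10 genes, by their brighter probe sets, on a colour scale from -1 (blue) to 1 (red). Cidea, Cidec, Cfd, Lpl and Gpd1, the 5 genes lowest on normoxia array 1, have r from 0.47 to 0.93 with each other, while Lep is near or below 0 with most genes.

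Among 12668 other genes above background, the gene most like Adipoq over the 11 arrays was Thrsp, a regulator of fatty acid synthesis in fat and liver (Pearson r = 0.90 and Spearman rho = 0.89, r = 0.81 without the 2 arrays farthest from the median). Next by r were Cfap90 (0.89), the centriole kinase Plk4 (0.89), Ahi1 (0.87), Rbpms2 (0.87), Cpt1b, which carries fatty acids into muscle and brown fat mitochondria (0.87), the calcium-binding protein S100b (0.86) and Casq2, the calsequestrin of heart muscle (0.86). Thrsp is on the list of adipocyte genes, and Cpt1b and S100b are on that of brown fat. The genes most like Ucp1 were the diacylglycerol kinase Dgkb (r = 0.93, rho = 0.89), Ercc6l, Pld4 and Nmbr (0.88 each), and Gfpt2, B4galnt4, Tmem35a and Cntn3 (0.87 each), none of them on a fat list. These are the highest of many values over 11 arrays, given as a description with no test. By Spearman's rho 2 of the 8 nearest to Adipoq and 5 of the 8 nearest to Ucp1 still had a rank of 8 or better, ties included, and by deviations from the group means 3 for Adipoq and 0 for Ucp1.

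Other genes of fat did not pass either. Of 34 further adipocyte genes 31 were measured, 30 of them above background, and 0 were called in any comparison. In hypoxia against normoxia 20 were higher and 11 lower, with a median of 0.13 beside -0.005 over the 14217 genes, and in hypoxia with SU5416 against normoxia 21 were higher and 10 lower (median 0.11 beside -0.015). In each of these comparisons 6 had an unadjusted p under 0.05, beside 9.59% of all genes in hypoxia and 12.7% with SU5416. In hypoxia with SU5416 against hypoxia 16 were higher and 15 lower (median 0.01), and 0 had an unadjusted p under 0.05. The 4 brightest were Aoc3, an amine oxidase of fat and vascular smooth muscle, the lipogenic enzymes Fasn and Acly, and Nnat, neuronatin. Nnat was 11.23, 11.52 and 11.11 in hypoxia with SU5416, and between 11.13 and 11.46 in hypoxia and between 10.14 and 10.86 in normoxia. Neither hypoxic group overlapped normoxia, as for 13.4% of all genes with SU5416 and 5.93% in hypoxia, with differences of 0.73 with SU5416 (SE 0.19, adjusted p = 0.188) and 0.80 in hypoxia (SE 0.18, adjusted p = 0.249). Against normoxia Acly differed by 0.25 with SU5416 and 0.28 in hypoxia (SE 0.13 and 0.12), Fasn by 0.27 with SU5416 and 0.28 in hypoxia (SE 0.20 and 0.18) and Aoc3 by -0.20 with SU5416 and 0.00 in hypoxia (SE 0.17 and 0.16). The other genes of the list that did not overlap between hypoxia and normoxia, named after their values were seen, were Mgll and Adrb3. Mgll, the lipase that splits monoglycerides, was 9.89 ± 0.02 with SU5416, 9.98 ± 0.15 in hypoxia and 9.55 ± 0.13 in normoxia (n = 3, 4 and 4), higher by 0.34 with SU5416 (SE 0.11, adjusted p = 0.285) and by 0.43 in hypoxia (SE 0.11, adjusted p = 0.279), with no overlap in either. Adrb3, the adrenergic receptor through which nerves activate brown fat, was 7.28 ± 0.49 with SU5416, 7.26 ± 0.13 in hypoxia and 7.82 ± 0.25 in normoxia (n = 3, 4 and 4), with a difference of -0.56 in hypoxia that did not overlap (SE 0.20, adjusted p = 0.377). Dgat2, also named after its values were seen, was 10.48 ± 0.32 with SU5416 (n = 3) and 9.93 ± 0.15 in normoxia (n = 4). It was higher by 0.55 without overlap (SE 0.16, limma adjusted p = 0.229), and in hypoxia it overlapped normoxia. From array to array the list had no single pattern. Fabp4, also on the alveolar macrophage list and named after its values were seen, was 9.94 on normoxia array 3 and 9.44 on SU5416 array 1. It was 6.53 on normoxia array 1 and between 7.75 and 8.93 on the others. On the first 3 arrays named Fasn was 11.11, 11.67 and 11.63.

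Of 23 further symbols of brown fat 19 were measured, 15 above background. In hypoxia with SU5416 against hypoxia 11 were higher and 8 lower (median 0.04), in hypoxia against normoxia 8 were higher and 11 lower (median -0.13), and in hypoxia with SU5416 against normoxia 12 were higher and 7 lower (median 0.01). None was called, none had an unadjusted p under 0.05 and none had groups that did not overlap, in any of these comparisons by limma. Over all genes, in the same order, 7.3%, 9.59% and 12.7% had an unadjusted p under 0.05, and 12.6%, 5.93% and 13.4% did not overlap, so a count of 0 in a list of 19 is no contrast with other genes. The brightest were Cox7a1, a cytochrome oxidase subunit of muscle and brown fat (differences of 0.01 with SU5416 and 0.14 in hypoxia, SE 0.13 and 0.12), Kcnk3, the potassium channel TASK-1 (0.13 with SU5416 and 0.20 in hypoxia), the carnitine carrier Slc25a20 (0.22 with SU5416 and 0.08 in hypoxia) and Ppargc1a, a coactivator of mitochondrial genes (0.12 with SU5416 and 0.10 in hypoxia), each against normoxia. Dio2, the deiodinase that activates thyroid hormone, Elovl3, Ebf2 and Ppara had means below background.

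Markers of the labelled tissue were present: all 9 genes of lung epithelium were above background, Sftpa1, the surfactant protein, averaging 13.67 ± 0.03 with SU5416, 13.59 ± 0.14 in hypoxia and 13.70 ± 0.15 in normoxia (SD, n = 3, 4 and 4). Lists of other cells were read as the log2 of their summed signal. That of lung epithelium ranged from 16.03 to 16.13 with SU5416, from 15.93 to 16.15 in hypoxia and from 15.90 to 16.45 in normoxia. Heart muscle genes, which rodent lungs also express in the walls of pulmonary veins, ranged from 10.68 to 12.39 with SU5416, from 10.36 to 12.01 in hypoxia and from 10.12 to 14.17 in normoxia, with 8 of 8 measured genes above background. The highest was on normoxia array 3 at 14.17, with the atrial genes Myl7 at 12.23 and Nppa at 11.04, and the sum on SU5416 array 1 was 12.39, the highest of its group. The arrays highest for fat genes were thus also the highest of their groups for heart muscle genes, whose part in the values of the fat genes was not tested. This was not particular to heart muscle. On normoxia array 3 and SU5416 array 1 the sums of alveolar macrophage genes (13.66 and 14.31), lymphoid genes (10.15 and 9.51) and other brown fat genes (12.89 and 12.80) were also the highest of their groups. Those of mesothelium, skeletal muscle, lipofibroblast and other adipocyte genes were so on SU5416 array 1 only. Those of lung epithelium and endothelium were so on neither.

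The summed signals of the other cell type lists moved less from array to array than that of heart muscle. The skeletal muscle sum mostly follows Myh1 (mean 11.79) and the mesothelium sum mostly follows Krt19 (mean 11.75). Dimmer genes under these sums could move more, so a steady sum does not show a steady tissue content. Over the arrays Acta1 ran from 6.50 to 9.48, Ckm from 4.59 to 8.57 and Lrrn4 from 7.84 to 9.52, whereas Msln ran from 9.78 to 10.27. Mesothelium ranged from 12.19 to 12.59 in hypoxia with SU5416, from 12.31 to 12.50 in hypoxia and from 11.88 to 12.29 in normoxia (4 genes, all above background). Skeletal muscle ranged from 12.01 to 12.44 with SU5416, from 11.75 to 12.07 in hypoxia and from 11.82 to 12.36 in normoxia (7 genes, 5 above background, Myh4 and Myh7 below). Lymphoid genes ranged from 9.16 to 9.51 with SU5416, from 9.16 to 9.62 in hypoxia and from 9.43 to 10.15 in normoxia (4 genes, all above background). Endothelial genes ranged from 13.78 to 13.93 with SU5416, from 14.02 to 14.16 in hypoxia and from 13.92 to 14.23 in normoxia (4 genes, all above background). No gene of these lists, or of the next pair, was called. Lipofibroblast genes ranged from 13.49 to 13.64 with SU5416, from 13.21 to 13.36 in hypoxia and from 12.54 to 13.09 in normoxia (5 genes, Fgf10 below background). Alveolar macrophage genes ranged from 13.86 to 14.31 with SU5416, from 13.73 to 13.92 in hypoxia and from 13.06 to 13.66 in normoxia (6 of 8 genes measured, all above background). In both, the brightest gene is Fabp5, a fatty acid binding protein that macrophages and fat also make. It was 12.94, 12.61 and 12.87 with SU5416, between 12.25 and 12.43 in hypoxia and between 10.87 and 12.03 in normoxia, so that no pair of groups overlapped. It differed from normoxia by 1.29 with SU5416 (SE 0.23, adjusted p = 0.0822) and by 0.82 in hypoxia (SE 0.22, adjusted p = 0.288). Pparg, the master regulator of fat cells, which macrophages and lipofibroblasts use too, was 9.05 ± 0.16 with SU5416, 8.95 ± 0.21 in hypoxia and 8.60 ± 0.55 in normoxia, with 7.79 on normoxia array 1. Plin2, the droplet coat of cells outside fat, was 10.91 ± 0.05 with SU5416, 10.93 ± 0.09 in hypoxia and 10.89 ± 0.16 in normoxia.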

How the data were processed

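Total RNA of whole lung was hybridised as biotinylated cRNA to Affymetrix rat arrays. The deposited values are log2 intensities, 1 per probe set and array; per the submitters' processing notes they come from RMA, with no version given. The mean of the linear values trimmed by 2% at each end is 500 on every array and array medians lie between 7.802 and 8.005, a pattern of scaling to a target that leaves the summarisation uncertain. They were used as deposited. After 57 controls were set aside, 31042 probe sets entered 1 limma fit (limma 3.58.1, R 4.3.3) with a mean per group and 8 residual degrees of freedom; p-values are two-sided and Benjamini-Hochberg adjusted over all probe sets. The procedure was tested on simulated data. Gene names came from the platform annotation and Entrez records; where probe sets of a gene compete the brightest stands for it, and list genes are named when called or among the 4 brightest of their list. Correlations used scipy 1.17.1. The members and lists were chosen with earlier results of these data known. Same-numbered arrays of different groups had deviations correlated between -0.125 and 0.128, so no pairing by number was seen. Arrays of different numbers were not compared in this way, so shared handling of same-numbered arrays cannot be judged from these values. The group given sorafenib was not analysed here.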

Additional observations from a re-analysis of the deposited data

Results flagged for a closer look

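In hypoxia the Adipoq signal of array 2 was 7.45, while the other 3 arrays lay between 6.35 and 6.52. The gap to the nearest array was 0.846 of the group's range, above Dixon's 95% critical value for 4 samples. Of 24 sets of 4 arrays examined, 12 probe sets in 2 groups, this was the only 1 past that value, and chance alone gives about 1 in 20. Plin1 had its highest hypoxia value on the same array, at 7.75 against 6.94 to 7.38 on the others.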

How the results depend on the processing

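No member probe set that was tested was called under any of the 19 alternatives in any comparison (57 counts of 0); with dim probe sets left out only 5 of the 12 were tested, and the other 7 have 18 alternatives. Over these the lowest adjusted p was 0.108, for the dimmer Gpd1 probe set, below background throughout. Of 36 member differences 21 stayed on 1 side of 0 in every alternative run for them, among them all 3 of Ucp1 (1.41 to 1.93 for hypoxia with SU5416 against hypoxia, -1.39 to -1.0 for hypoxia against normoxia, 0.22 to 0.73 for hypoxia with SU5416 against normoxia). In hypoxia against normoxia, Cidea turned to 0.03 after quantile normalization and 0.05 after median centring, and Cfd to -0.07 with array weights and -0.27 without normoxia arrays 1 and 2. In hypoxia with SU5416 against normoxia, Cidea turned to -0.07 without those arrays, and the dimmer Gpd1 probe set to -1.05 without them and -0.24 with array weights. Plin1 turned to -0.08 with array weights in hypoxia with SU5416 against hypoxia. Leaving out 1 array at a time gave, in hypoxia against normoxia, -0.22 to 0.16 for Cidea, -0.41 to 0.10 for Cidec, -0.42 to 0.08 for Pck1 and -0.22 to 0.34 for Cfd. In hypoxia with SU5416 against normoxia it gave -0.61 to 0.20 for Adipoq, -0.62 to 0.26 for Plin1, -0.03 to 0.14 for Lpl and -0.45 to 0.50 for the dimmer Gpd1 probe set. In hypoxia with SU5416 against hypoxia it gave -0.41 to 0.13 for Lep, -0.30 to 0.58 and -0.25 to 0.01 for the probe sets of Plin1, and -0.02 to 0.13 for Gpd1. Lpl, at 0.00 there, ran from -0.11 to 0.07. The cause was not tested. Over all probe sets, hypoxia against normoxia had 2 calls, and 1 after quantile normalization, median centring, with trend and robust options, with only these groups or with the replicate block, 0 with dim probe sets left out, 99 without normoxia arrays 1 and 2, and 1 to 14 without 1 array (14 without hypoxia array 4, 4 without normoxia array 1, and 1 without normoxia array 4, hypoxia array 1 or 3 or SU5416 array 1). Hypoxia with SU5416 against normoxia had 19, and 43 after quantile normalization, 214 with dim probe sets left out, 8 with only these groups, 145 with trend and robust options, 32 with array weights, 6 with the replicate block and 8 to 38 without 1 array (38 without hypoxia array 4, 8 without normoxia array 4 or hypoxia array 3, 9 without SU5416 array 1, 11 without hypoxia array 1, 12 without normoxia array 1). Hypoxia with SU5416 against hypoxia had 8, and 14 after quantile normalization, 16 with trend and robust options, 24 with array weights, 16 without normoxia arrays 1 and 2, and 7 to 15 without 1 array (15 without SU5416 array 3, 14 without normoxia array 1). The replicate block changed no call of a member. Signal close to background limits Ucp1, Lep and Cidec most.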
